A study of Mus musculus with 2 samples.

Results

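Plasmacytoid dendritic cells were examined in a single-cell RNA count matrix of mouse liver immune cells. They made up 257 of 10366 kept barcodes, a share of 2.48% (95% interval 2.19 to 2.80, exact Clopper-Pearson), which the sort before loading can set. Members were chosen by measured values of this same matrix, namely the raw unique molecular identifiers (UMI), each of which stands for 1 captured transcript. The limits were at least 5 UMI of Siglech, at least 2 of Ccr9, Klk1 and Cox6a2 together, at most 1 of Ebf1 and Ms4a1 together, 0 of Cd3d and Cd3e, at most 3 of Clec4f and fewer than 4 of Mki67 and Top2a together. The members therefore had to carry Siglech and to hold few or no transcripts of these B cell, T cell, Kupffer cell and division genes. Values of these 11 genes are given as description only.

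Immune cells had been released from livers with collagenase IV, sorted and captured on the 10x Genomics Chromium droplet system. The labels name 2 samples, both from livers of mice 8 weeks old with the strain given as RedMUC298trTg. One is WT, which the study's title equates with Rcrin flox mice, and the other is Rcrin KO, a conditional knockout in the liver; the driver of the deletion and the number of animals are not given in the sources used here. The 3 files under the WT label did not differ in a single byte from those under the Rcrin KO label, so all 11192 barcodes were shared. They were used as 1 sample of unknown genotype, and no comparison of genotypes was made. No symbol in the gene list contained Rcrin, so the targeted gene gave no check of the labels. A single sample gives neither a spread between replicates nor a test. Levels are given as counts per 1000000 UMI (CPM) summed over the cells of a class. Their intervals are exact Poisson 95% intervals, and those of ratios are exact conditional Poisson intervals. All intervals cover counting error only.

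Plasmacytoid dendritic cells are round, secretory dendritic cells that patrol blood and lymphoid organs and are known for releasing large amounts of type I interferon when the endosomal receptors TLR7 and TLR9 meet viral RNA or DNA. Their fate is set by the E protein TCF4, which works with SPIB, RUNX2, BCL11A and IRF8 and is opposed by ID2, the inhibitor that favours conventional dendritic cells. They arise from myeloid and lymphoid progenitors and keep traces of lymphoid gene expression, such as terminal deoxynucleotidyl transferase and immunoglobulin transcripts. In the liver they are known as a resident population of the sinusoids with a part in antiviral defence and in tolerance.

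The members held 2112820 UMI in all, with a lowest total of 2166, a median of 8028 and a highest total of 29991 UMI per cell, against a median of 4265 in the other 10109 kept cells. Of the 18 markers of plasmacytoid dendritic cells that the rule did not use, all 18 were at least 4-fold higher in the members than in the other kept cells, where 2.19% of 15742 genes were. The marker lists were set with earlier results of these data known, so this count is description only. Folds behind such counts are ratios of CPM + 1. Among markers of lymphocytes, Cd79a of B cells stood at 3.79 CPM (8 UMI), Cd3g of T cells at 0.473 CPM (1 UMI) and Trbc2 of T cells at 1.42 CPM (3 UMI). Of the markers of other cells with enough UMI to compare (at least 10 over both sums), 8 of 8 B cell, 8 of 8 T cell, 10 of 10 natural killer cell, 10 of 10 neutrophil, 9 of 9 Kupffer cell and 10 of 10 sinusoidal endothelial genes were at least 4-fold lower in the members than in the other kept cells, where 9.76% of all genes were. Genes that the rule used are not in these counts. The rule still left out cells by B cell, T cell and Kupffer cell genes. Low levels of the other markers of these 3 types partly follow from it and are description only. Fewer were lower for plasma cells (7 of 10), classical monocytes (6 of 10), nonclassical monocytes (6 of 10), hepatocytes (3 of 10), erythroid cells (3 of 5), basophils (3 of 6) and platelets (1 of 6). The dendritic lists did not stand apart in this way from all other kept cells, few of which are dendritic. Against the cells gated as cDC1, 8 of 8 cDC1 markers compared were at least 4-fold lower (4.99% of all genes). The gate on such markers favours that contrast. Of 10 cDC1 markers 2 were at least 4-fold lower and 1, Clec9a, higher (86.1 and 11.1 CPM), and the list summed to 339 CPM in the members and 309 CPM in the other kept cells. Of 10 type 2 dendritic markers 2 were lower and 3 higher (Cd209a, Clec10a and Mgl2), with sums of 675 and 408 CPM. The classical monocyte list summed to 2545 CPM in the members, of which Ly6c2, also on the plasmacytoid list, gave 2259 CPM. The nonclassical list summed to 461 CPM and the neutrophil list to 1077 CPM. The part of these transcripts in the results was not tested. Scrublet called 11 of the 257 members doublets (4.28%), against 3.39% of all kept barcodes, and they were kept.

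A few members did carry transcripts of other cells. With limits set after the values were seen, 12 members held at least 20 UMI of S100a8 and S100a9, 10 of Lyz2, 5 of C1qa, C1qb and C1qc, or 10 of Kdr and Clec4g, and 7 of these 12 were Scrublet doublets. The 12 held 97.0% of the members' S100a8 UMI, 95.4% of their S100a9 UMI, 86.5% of their Lyz2 UMI and 84.3% of their Clec4g UMI. Other such transcripts were spread more widely, with 54.0% of Kdr UMI, 44.8% of C1qb UMI and 11.1% of C1qa UMI in the 12. In the other 245 members S100a8 stood at 12.1 CPM, Lyz2 at 24.3 CPM and Kdr at 37.4 CPM. Comparisons between sets of members below use the 245, while ranges and variances per cell are over all 257.

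The Siglech threshold cut through few cells. Just inside it, 6 members had 5 to 6 Siglech UMI, with Tcf4 at 2487 CPM and Bst2 at 4060 CPM. Just outside, 7 barcodes with 3 to 4 Siglech UMI met every other criterion, with Tcf4 at 3584 CPM and Bst2 at 3202 CPM. The 19 barcodes that met every other criterion with 0 Siglech UMI differed from these. Over the 19, Tcf4 was 250 CPM and Jchain, the joining chain of secreted antibody, was 11127 CPM, all of it in 9 of them. Of the other criteria taken singly, that on Cd3d and Cd3e left out 10 barcodes (7 of them Scrublet doublets), that on Ebf1 and Ms4a1 left out 7 (4 doublets), that on Clec4f left out 3 (3 doublets), that on division left out 2 (0 doublets), and that on Ccr9, Klk1 and Cox6a2 left out 2 (1 doublet).

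The stretches around the start sites of 5 genes that stood high in the members are printed because members of the TCF4 family bind the short E-box motif CANNTG, and each of these stretches holds the E-box CACCTG or its reverse complement CAGGTG, shown in capitals. Siglech, Ccr9 and Klk1 chose the cells. Pgam2 and Paqr5 did not. Each stretch runs from 250 bases before to 50 bases after the start site that RefSeq gives on GRCm38.p6, the assembly also called mm10, and is written 5′ to 3′ on the strand of the gene.
Siglech, chr7:55767934-55768233, + strand: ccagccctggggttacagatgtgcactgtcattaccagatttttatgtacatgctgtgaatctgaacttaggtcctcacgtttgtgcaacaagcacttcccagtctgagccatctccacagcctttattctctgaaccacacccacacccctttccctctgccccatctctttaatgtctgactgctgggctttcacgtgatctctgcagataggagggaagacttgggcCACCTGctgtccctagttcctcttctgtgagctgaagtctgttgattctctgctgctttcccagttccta
Ccr9, chr9:123766961-123767260, + strand: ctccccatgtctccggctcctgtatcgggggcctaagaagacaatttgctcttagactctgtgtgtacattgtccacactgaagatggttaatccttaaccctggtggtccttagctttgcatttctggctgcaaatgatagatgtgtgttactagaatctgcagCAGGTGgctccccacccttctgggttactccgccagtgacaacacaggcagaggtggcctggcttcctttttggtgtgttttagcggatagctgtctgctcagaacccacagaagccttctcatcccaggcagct
Klk1, chr7:44225110-44225409, + strand: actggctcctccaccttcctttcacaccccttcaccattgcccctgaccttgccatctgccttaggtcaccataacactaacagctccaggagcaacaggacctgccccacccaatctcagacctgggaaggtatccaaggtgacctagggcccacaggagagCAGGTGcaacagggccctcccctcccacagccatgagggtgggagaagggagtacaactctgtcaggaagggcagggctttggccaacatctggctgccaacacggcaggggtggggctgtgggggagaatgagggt
Pgam2, chr11:5803747-5804046, - strand: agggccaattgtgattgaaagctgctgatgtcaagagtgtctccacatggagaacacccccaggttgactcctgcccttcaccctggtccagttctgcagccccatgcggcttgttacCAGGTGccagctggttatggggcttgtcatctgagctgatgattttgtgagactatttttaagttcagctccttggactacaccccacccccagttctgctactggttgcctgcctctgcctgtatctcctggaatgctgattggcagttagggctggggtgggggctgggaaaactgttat
Paqr5, chr9:62026741-62027040, - strand: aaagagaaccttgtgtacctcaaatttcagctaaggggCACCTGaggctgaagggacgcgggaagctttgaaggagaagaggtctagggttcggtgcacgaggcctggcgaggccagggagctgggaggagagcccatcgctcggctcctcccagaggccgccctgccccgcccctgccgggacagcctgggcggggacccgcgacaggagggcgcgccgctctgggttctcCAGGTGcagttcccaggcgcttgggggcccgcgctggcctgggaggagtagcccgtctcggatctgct

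The capitals begin 20 bases before the start site in Siglech, 85 in Ccr9, 87 in Klk1 and 132 in Pgam2, and 212 and 18 bases before it in Paqr5. Of 24 genes that lead the members (the rule's Siglech, Ccr9, Klk1 and Cox6a2 and the 10 highest folds of each comparison), 15 had a promoter entry, 17 entries in all. Of these entries 9 (52.9%) held CACCTG on either strand, against 6640 of 32851 promoters of the same length (20.2%). Every such match is also a match to CANNTG, which 15 of the 17 entries (88.2%) and 72.3% of all promoters held. The RUNX motif TGTGGT, searched on both strands, was in 6 entries (35.3%) and in 16.8% of all promoters. The motifs were chosen with these data in view, 4 of the 24 genes defined the cells, and a match is a description of letters, not a site.

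Transcription factors set the members apart from both other classes they are usually compared with. Of 32 fixed transcription factor genes, 31 had enough UMI for a comparison with B cells (at least 10 over both sums): 8 were at least 4-fold higher in the members, where 4.86% of 12274 genes were, and 4 at least 4-fold lower, where 4.07% were. Against the 40 cells gated as type 1 conventional dendritic cells (cDC1) by Xcr1 and Clec9a, 10 of 31 were at least 4-fold higher, where 9.07% of 9715 genes were, and 4 lower, where 4.99% were. The median log2 fold of the list was 0.50 against B cells and 1.10 against cDC1, beside -0.10 and 0.26 over all genes compared.

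Tcf4, which encodes the E protein E2-2, stood at 3513 CPM (interval 3433 to 3594) in the members, at 316 CPM in B cells and at 105 CPM in cDC1. That was 11.1-fold (10.7 to 11.6) above B cells and 33.4-fold (26.5 to 42.9) above cDC1. Every member carried Tcf4: the lowest had 923 CPM, the median 3477 and the highest 7445. Runx2, a runt-family factor that plasmacytoid cells need to leave the bone marrow, had 1039 CPM in the members, 4.57 CPM in B cells and 7.40 CPM in cDC1. Its log2 fold over B cells of 7.54 was 6.54 among cells with at most 5% mitochondrial UMI. Spib, an Ets-family factor of plasmacytoid and B cells, was 326 CPM in the members and 128 CPM in B cells, 2.55-fold apart (2.33 to 2.80), and had 1 UMI in cDC1. Bcl11a, a zinc-finger repressor that acts upstream of Tcf4, was 2.33-fold above B cells (389 and 167 CPM) and 16.4-fold above cDC1 (10.1 to 28.9).

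Irf8, needed by several dendritic and lymphoid lineages, did not single the members out: it was 3029 CPM in them, 1644 CPM in cDC1 and 2326 CPM in natural killer cells. Zeb2, a repressor of Id2, was 448 CPM in the members, 196 in B cells and 38.5 in cDC1, below its 1115 CPM in classical monocytes. Id2, the inhibitor of E proteins, was low in the members at 58.7 CPM and in B cells at 65.1 CPM, and was 968 CPM in cDC1 and 1270 CPM in Kupffer cells. Its log2 fold over B cells, -0.15, was 0.83 after thinning each cell to 1000 UMI, so no direction is given for that pair. Batf3, required for cDC1, had 5 UMI over all members (2.37 CPM, 160 CPM in cDC1), and Zbtb46 of conventional dendritic cells had 6 (2.84 CPM). Ets1 was 0.167 times its B cell level (212 and 1265 CPM), and Mef2c 0.666 times (857 and 1288 CPM). Pax5, the B cell commitment factor, had 3 UMI in the members. Mycl, a dendritic Myc-family gene, was shared with cDC1 (75.3 and 161 CPM) and had 0.440 CPM in B cells.

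**Figure D1:**
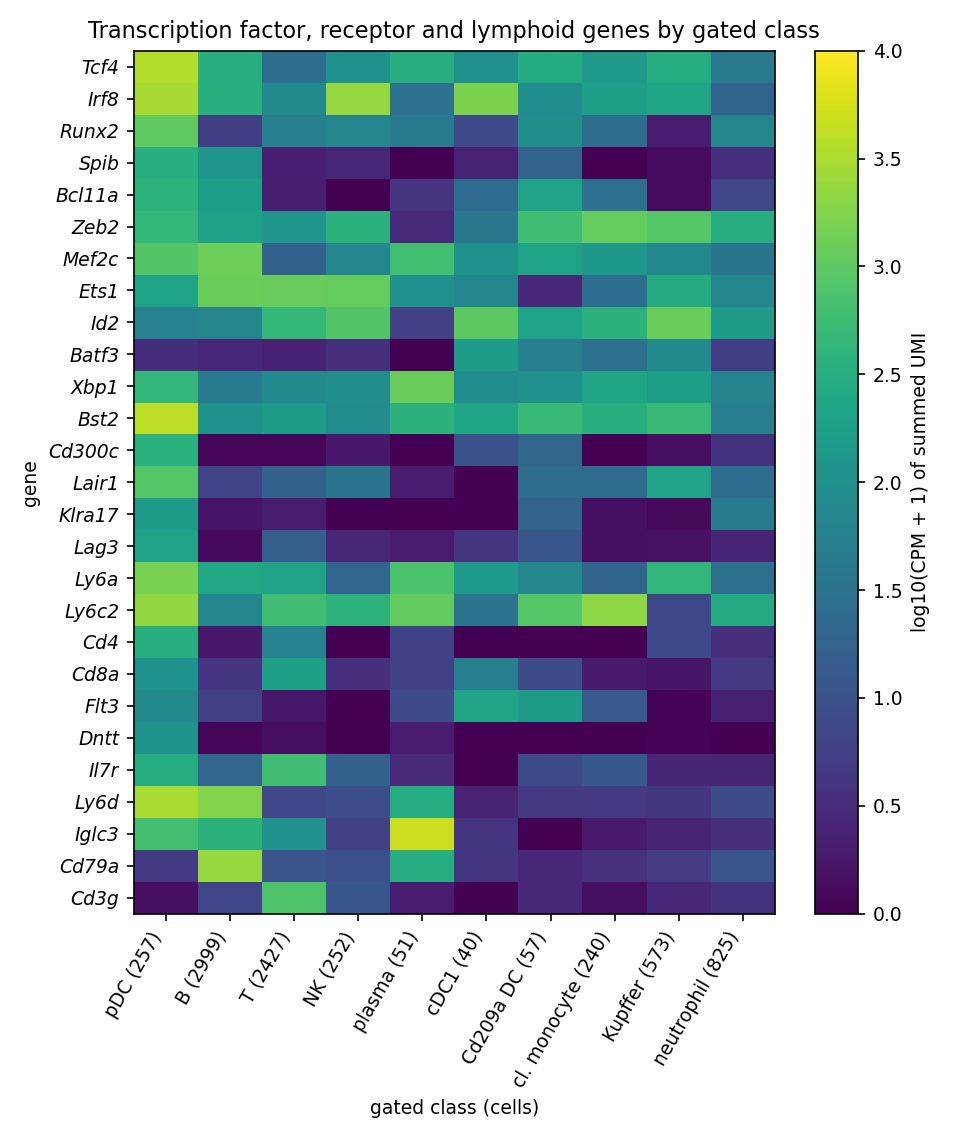
Levels of 27 transcription factor, receptor and lymphoid genes (rows) in 10 gated classes (columns, with the number of cells); colour is log10 of summed CPM + 1. Tcf4, Runx2, Bst2, Cd300c, Lair1 and Dntt are brightest in the plasmacytoid column (pDC), Irf8 is also bright in natural killer cells (2326 CPM) and cDC1 (1644 CPM), and Cd79a and Cd3g are dark in it.

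The surface of the members joined receptors of several lineages. Of 47 fixed surface genes, 20 of 43 compared were at least 4-fold higher than in B cells and 5 lower, and 16 of 40 were at least 4-fold higher than in cDC1 and 5 lower (background 4.86, 4.07, 9.07 and 4.99%). The median log2 fold was 1.65 against B cells and 1.23 against cDC1.

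Bst2, the antigen of the PDCA-1 antibody and a tether of budding virions, stood at 4025 CPM (3940 to 4112) in the members, at 111 in B cells, 234 in cDC1 and 514 in Kupffer cells. After every cell was thinned to 1000 UMI, 99.2% of members carried a Bst2 UMI, against 8.81% of B cells and 2.80% of neutrophils. Cd300c, an immunoglobulin-family receptor, was 363 CPM in the members, with 2 UMI over all B cells, a ratio of 2067 (570 to 17103); members held 83.9% of all its UMI in the kept barcodes. Lair1, an inhibitory collagen receptor, was 867 CPM in the members and 0 UMI in cDC1, at least 195-fold higher when cDC1 is set at 3 counts, the limit used for every class at 0. Among the other gated classes its highest level was 198 CPM, in Kupffer cells. Klra17, a member of the Ly49 family whose reads may be shared with close relatives, was 153 CPM in the members and 41.9 CPM in neutrophils. Lag3, a checkpoint receptor that binds MHC class II, was 203 CPM in the members and 15.1 CPM in T cells.

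T cell coreceptors were present with few T cell receptor transcripts, which the rule favoured by asking for 0 UMI of Cd3d and Cd3e. Cd4 stood at 317 CPM in the members, above the 57.5 CPM of T cells, and 189 of 257 members carried it. Cd8b1 was 319 CPM and Cd8a 114 CPM, while Trac and Trbc2 had 2 and 3 UMI. Cd7, an immunoglobulin-family gene of T and natural killer cells, was 373 CPM. Thinned to 1000 UMI, 28.4% of members but 0.244% of neutrophils carried a Cd4 UMI.

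Ly6c2 was 2259 CPM in the members, near the 2111 CPM of classical monocytes, and Ly6a (Sca-1) was 1582 CPM, above the 748 CPM of plasma cells. Ly6c1 had 3 UMI; reads of this pair may be split between near-identical copies. Among C-type lectins, Clec10a was 203 CPM in the members and 204 CPM in dendritic cells gated on Cd209a, and Cd209d was 233 and 77.7 CPM in these classes, with 0 UMI of each in cDC1. Lrp8, the apolipoprotein E receptor 2, was 441 CPM in the members and 0.791 CPM in B cells. Flt3, the receptor for the cytokine that drives dendritic development, was lower in the members (82.4 CPM) than in cDC1 (213 CPM), a ratio of 0.386 (0.308 to 0.485). Csf1r had 17 UMI and Axl 10 UMI in all members (8.05 and 4.73 CPM).

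Few homing receptors were high apart from Ccr9, which chose the cells. Of 15 fixed chemokine and migration receptors, 3 of 14 compared were at least 4-fold higher than in B cells (Cxcr3 and Cmklr1 among them), where 4.86% of all genes were, and 4 lower (Ccr7, Cxcr5, Cx3cr1 and S1pr1), where 4.07% were. Cmklr1, the chemerin receptor, was 21.8 CPM and 0.967 CPM in B cells. Ccr7, which guides cells into lymphatics, had 12 UMI in the members (5.68 CPM; 708 CPM in B cells), and S1pr1, which guides egress into blood, had 11 (5.21 CPM; 242 CPM in B cells).

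Of the endosomal Toll-like receptors, Tlr7 had the most UMI in the members. It stood at 156 CPM (140 to 174; 330 UMI) in the members, 14.6 CPM in B cells, 83.5 CPM in Kupffer cells, 87.9 CPM in classical monocytes and 0 UMI in cDC1, at least 35.2-fold lower there. Tlr9 had 17 UMI in the members (8.05 CPM, 4.69 to 12.9) and 48 in all kept barcodes, so the members, 2.48% of the barcodes, held 35.4% of them. At this depth a Tlr9 UMI was found in 16 of 257 members. Tlr12, which senses profilin of parasites, was 68.6 CPM in the members and 63.6 CPM in cDC1, with an interval of their ratio of 0.763 to 1.55. Tlr3 and Tlr11 were nearly limited to cDC1 in that pair, at 2.84 and 197 CPM for Tlr3 and 1.42 and 59.2 CPM for Tlr11. Tlr4, Tlr8 and Tlr1 had 0 UMI in the members.

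The machinery that serves these receptors was present. Unc93b1, which carries the nucleic acid receptors to endosomes, was 584 CPM in the members, 1.87-fold above B cells and close to the 510 CPM of Kupffer cells. Slc15a4, a lysosomal transporter needed for interferon output, was 170 CPM, against 57.0 in B cells and 13.3 in cDC1. Its partner TASL, listed as 5430427O19Rik, was 70.5 CPM against 25.8 and 16.3 CPM. Pld4, a 5′ exonuclease that trims endosomal nucleic acids, was 947 CPM, 12.5-fold above B cells (11.6 to 13.6) and 3.46-fold above cDC1 (2.98 to 4.04), while its relative Pld3 was 11.4 CPM and highest in Kupffer cells (96.1 CPM). Irf7, the master factor of interferon alpha genes, was 247 CPM, against 28.8 in B cells, 94.7 in cDC1 and 503 in Kupffer cells. Its log2 fold over cDC1 of 1.37 was 0.38 after thinning to 1000 UMI. The cytosolic RNA sensor Ddx58 (RIG-I) was low, with 5 UMI (2.37 CPM; 56.9 CPM in B cells). Over the 39 fixed sensing genes, 5 of 36 compared were at least 4-fold higher than in B cells (4.86% of all genes) and 3 lower (4.07%). Against cDC1 5 of 32 were higher (9.07%) and 2 lower, near the 4.99% of all genes. The median log2 folds were -0.00 and 0.51.

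**Figure D2:**
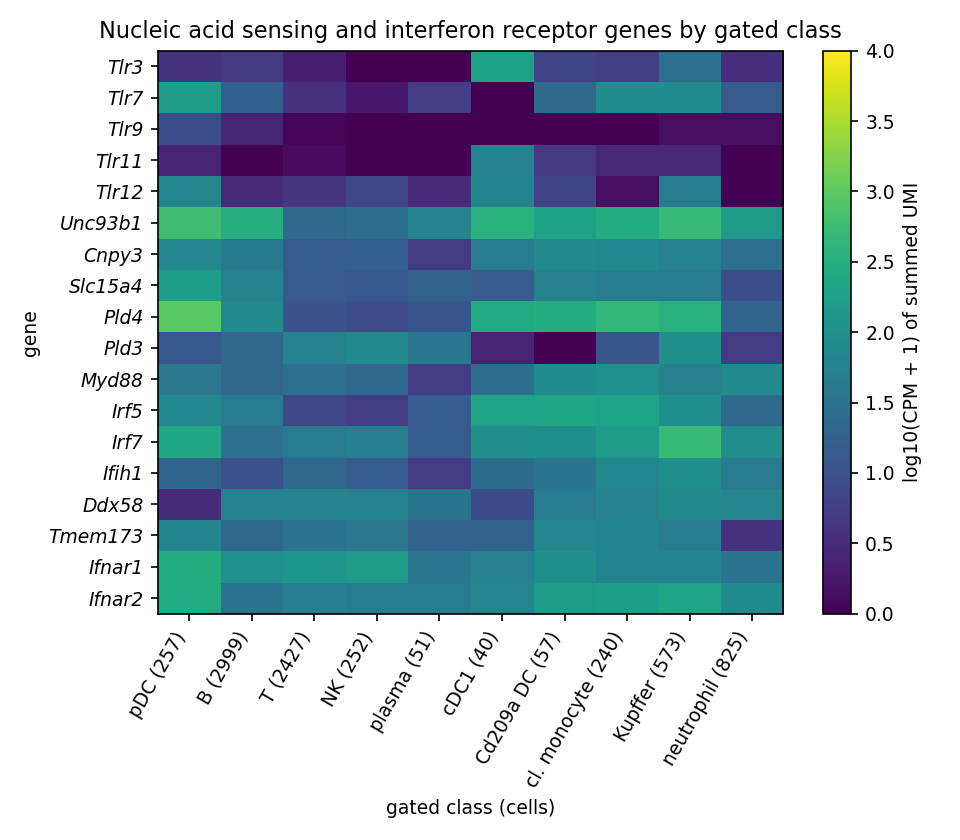
Levels of 18 nucleic acid sensing and interferon receptor genes (rows) in 10 gated classes (columns, with the number of cells); colour is log10 of summed CPM + 1. Tlr7 and Pld4 are brightest in the plasmacytoid column, Tlr3 and Tlr11 in cDC1, and Irf7 in Kupffer cells (503 CPM).

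Interferon transcripts were not detected at this depth. The 15 interferon alpha and beta genes in the matrix had 0 UMI in the members, which allows a summed level of up to 1.42 CPM and up to 1.17% of members with a UMI, and they had 6 UMI over all barcodes. Interferon alpha genes are near-identical, and reads shared among them may not have been counted. With epsilon, kappa, zeta and lambda genes added, 20 genes had 1 UMI in the members, of Ifnl2. Both chains of the type I interferon receptor were higher in the members than in B cells and cDC1: Ifnar1 was 295 CPM against 103 and 54.7 CPM, and Ifnar2 280 CPM against 31.0 and 65.1 CPM. Ifnlr1, the type III receptor chain, had 0 UMI.

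Genes induced by interferon were mixed. Of 29 in the matrix, 4 of 29 were at least 4-fold higher than in B cells (Bst2, Ifi44, Stat2 and Isg15) and 1 lower (Oas2), beside 4.86 and 4.07% of all genes. Against cDC1 2 of 26 were higher (Bst2, Stat2) and 3 lower (Ifit1, Ifit2, Ifit3), beside 9.07 and 4.99%, so that the higher count was no more than the background. The median log2 fold was 0.39 against B cells and 0.12 against cDC1. Ifit1 had 3 UMI in the members (1.42 CPM; 121 CPM in neutrophils), and Rsad2 (viperin) was 18.9 CPM (311 CPM in neutrophils). Stat2, which carries the interferon signal to the nucleus, was 125 CPM against 27.8 CPM in B cells.

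Among cytokines the members were led by a chemokine. Ccl4, which attracts T and natural killer cells, reached 6524 CPM (6415 to 6633), against 131 CPM in B cells, 796 in cDC1, 1273 in T cells, 1820 in neutrophils and 2042 in natural killer cells. It was found in 251 of 257 members, and spread widely among them, from 0 through a median of 4991 to 42968 CPM. After thinning to 1000 UMI, 83.3% of members carried it, against 2.97% of B cells and 32.2% of neutrophils. Its log2 fold over B cells of 5.63 was 3.43 among cells with at most 5% mitochondrial UMI. Ccl3, its neighbour on chromosome 11, was 268 CPM, 3.48-fold above B cells (3.12 to 3.87) but below neutrophils (493 CPM) and natural killer cells (715 CPM). Of 25 fixed cytokine and effector genes, 2 of 23 compared were at least 4-fold higher than in B cells (Ccl4, Tnf) and 4 lower, and 4 of 19 were higher than in cDC1 and 5 lower, beside 4.86, 4.07, 9.07 and 4.99% of all genes.

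Il12a, the p35 subunit shared by IL-12 and IL-35, was 64.8 CPM (137 UMI in 84 members), 2.83-fold above B cells, and had 0 UMI in cDC1. Its partner chain Il12b was the other way about, with 2 UMI in the members and 167 CPM in cDC1. Gzmb had 12 UMI in the members (5.68 CPM; 1083 CPM in natural killer cells), and Il6, Il10 and Ido1 had 2, 1 and 1 UMI. Il1b (115 CPM) and Cxcl2 (188 CPM) sat in few cells, 8.17% and 12.5% of members, with up to 64 and 105 UMI in 1 member, and both were far higher in neutrophils (8316 and 12661 CPM).

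The lymphoid list parted the members from both neighbours. Its 32 fixed genes are not all limited to lymphoid cells. Of 27 compared, 14 were at least 4-fold lower than in B cells and 4 higher (Dntt, Il7r, Fcer1g and Tyrobp), with a median log2 fold of -2.12. Against cDC1, 15 of 20 were at least 4-fold higher and 0 lower, with a median of 2.99. Over all genes the shares were 4.07% lower and 4.86% higher against B cells and 9.07% higher and 4.99% lower against cDC1, and the medians -0.10 and 0.26. Dntt, the polymerase that adds untemplated nucleotides to rearranging receptor genes (chromosome 19, 41029275 to 41059525 on GRCm38, plus strand), was 115 CPM (242 UMI in 121 members). It had 2 UMI in B cells and 0 in cDC1, so that members held 65.2% of its UMI. Thinned to 1000 UMI, 9.73% of members carried it and 0 of 820 neutrophils did, which allows a share of up to 0.366% there. The recombinase gene Rag1 had 2 UMI and Rag2 0 UMI in the members. Il7r, the receptor chain for IL-7, was 301 CPM, above the 18.9 CPM of B cells and below the 585 CPM of T cells.

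Ly6d, a surface gene of B cell progenitors, was 3111 CPM in the members, 1.71-fold above B cells (1819 CPM; interval 1.66 to 1.76), with 1 UMI in cDC1. Blnk, the adaptor below the B cell receptor, was above B cells by a like ratio (422 and 246 CPM). Ighm, the mu heavy chain, was 1183 CPM, 0.285 times its B cell level, and was found in 256 of 257 members without thinning; 70.4% of thinned members carried it, against 9.02% of neutrophils. Iglc3, a lambda constant gene, was 632 CPM in the members and 370 CPM in B cells, while Igkc, the kappa constant gene, was 467 CPM and 8011 CPM. Iglc2 and Iglc3 are near-identical, and how reads were divided between them is uncertain. The share of neutrophils with a UMI after thinning was 17.8% for Igkc but 0.244% for Iglc3, and in members it was 27.2% for Igkc and 44.7% for Iglc3. Vpreb3 had 0 UMI and Cd79a 8 in the members. Tyrobp, the adaptor of activating receptors such as Siglec-H, was 3881 CPM, 22.3-fold above B cells, and Fcer1g 986 CPM, 8.34-fold above them.

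MHC class II transcripts were lower in the members than in either antigen-presenting neighbour. Of the 16 class II and costimulation genes compared, 0 were 4-fold higher (9.07% of all genes) and 8 were 4-fold lower (4.99%) than in cDC1, and 14 were at least 2-fold lower, where 12.3% of all genes were. Against B cells 0 were 4-fold higher (4.86% of all genes) and 5 were 4-fold lower (4.07%). H2-Aa, an alpha chain, was 1821 CPM in the members, 2734 in B cells and 5764 in cDC1. Cd74, the invariant chain, was 5217, 10153 and 13566 CPM in that order. Ciita, the coactivator of class II genes, was 37.9 CPM, 135 CPM and 189 CPM. H2-DMb2 and H2-Ob, which tune peptide loading, were 19.4 and 11.4 CPM in the members and 344 and 435 CPM in B cells. The costimulatory gene Cd86 had 34 UMI in the members (16.1 CPM; 157 and 213 CPM), Cd80 6 UMI and Cd40 11 UMI.

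Genes of the secretory pathway stood between B cells and plasma cells. Of 41 compared, 28 were at least 2-fold higher in the members than in B cells, where 13.5% of all genes were. None (0) were 2-fold lower, where 15.8% were. At least 4-fold higher were 5 (Xbp1, Ern1, Edem2, Sec61b and Fkbp2), where 4.86% of all genes were. Against cDC1, 15 of 40 were at least 2-fold higher, where 23.5% of all genes were, and 1 lower, where 12.3% were. Against the 51 plasma cells gated on Jchain, 27 of 41 were at least 2-fold lower, where 7.75% were, and 0 higher, where 47.4% were. Xbp1, the factor that builds the secretory apparatus, was 451 CPM in the members, 45.7 in B cells, 87.3 in cDC1 and 1230 in plasma cells. Sec61b, a subunit of the protein-conducting channel, was 1065, 212, 562 and 1920 CPM, and Herpud1, of endoplasmic reticulum degradation, was 609, 178, 217 and 1012 CPM. Hsp90b1, a chaperone of Toll-like receptors, was 1380 CPM, 512, 724 and 10590 CPM in the same order. The list's summed level was 12133 CPM in the members, 4955 in B cells, 7459 in cDC1 and 46333 in plasma cells. Mzb1, a chaperone of marginal zone B and plasmacytoid cells, was 292 CPM, against 208 CPM in B cells and 0 UMI in cDC1.

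Genes better known from striated muscle were among the leading genes of the members. The rule itself used Cox6a2, the muscle isoform of a cytochrome c oxidase subunit. The genes with the highest folds over all other kept cells also included Pgam2 (muscle phosphoglycerate mutase), Atp2a1 (the calcium pump SERCA1 of fast muscle) and Sh3bgr. Pgam2 was 154 CPM in the members (326 UMI in 103 members), and had 1 UMI in B cells and 0 in cDC1. Atp2a1 was 141 CPM (297 UMI), 0.527 CPM in B cells and 0 UMI in cDC1, and Sh3bgr 111 CPM (235 UMI), 0.176 CPM and 0 UMI.

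The general counterparts of these genes were not shifted alike. Cox6a1 was 216 CPM in the members and 197 CPM in the other kept cells, Pgam1 91.8 and 101 CPM, Atp2a2 102 and 96.6 CPM, and Sh3bgrl 89.5 and 154 CPM. Other sarcomere or muscle enzyme genes were at or near 0 in the members: Ckm and Pygm had 0 UMI, Des 1 UMI and Tnnt3 4 UMI. The list of 25 muscle genes was drawn up after the values of its leading members had been seen; 5 of the 10 compared with B cells were at least 4-fold higher (4.86% of all genes) and 1 lower (4.07%), which by that choice supports nothing. One of the 5 (Tnni2, 46.4 CPM) was higher still in cDC1 at 120 CPM. Over 16 cytochrome c oxidase genes, 0 of 12 compared with B cells passed 4-fold in either direction once Cox6a2 was set aside as a rule gene.

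**Figure D3:**
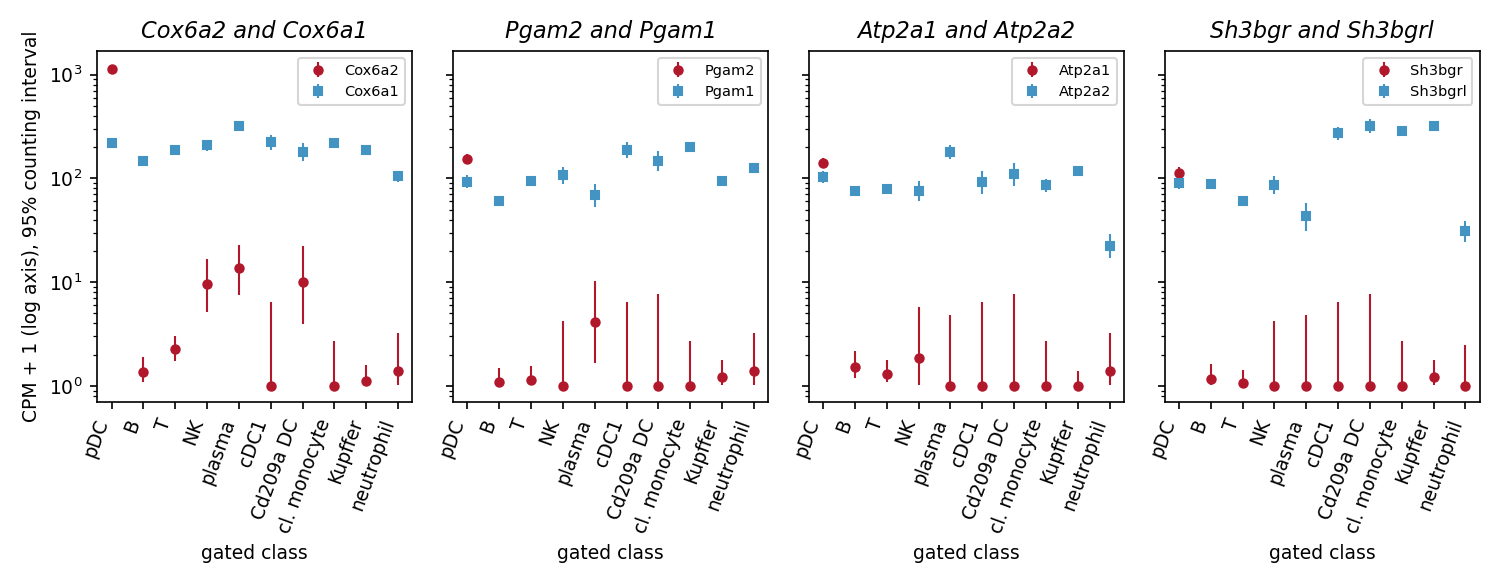
Summed CPM + 1 (log axis) of 4 muscle-type genes (red circles) and a general paralog of each (blue squares) in 10 gated classes; bars are exact Poisson 95% intervals. The red points stand high in plasmacytoid cells among the classes drawn (Pgam2 at 154 CPM; Cox6a2 is a rule gene), while the blue points lie at like heights in most classes.

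The leading gene by fold in each of the 3 comparisons with other kept cells, B cells and cDC1 was Gm21762, a protein-coding gene in GENCODE on chromosome 13 (120214593 to 120215947 on GRCm38, minus strand). It stood at 1929 CPM (1870 to 1989; in 99.6% of members), at 1.05 CPM in B cells, 0 UMI in cDC1 and 6.17 CPM in all other kept cells. Paqr5, a membrane progestin receptor, was 142 CPM and 1.08 CPM in the other kept cells, Smim5 265 and 2.57 CPM, and Upb1, of pyrimidine breakdown, 301 and 4.21 CPM. The lowest folds against B cells were those of Cd79a, Bank1, Fcer2a, Vpreb3 and Gm8369, and against cDC1 those of Ccl2, Ifi205, Il12b, Pak1 and A530099J19Rik. Klk1b27, a tissue kallikrein, was 61.5 CPM (130 UMI) and 0.402 CPM in the other kept cells; it is near-identical to the rule gene Klk1, and reads may be shared.

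Survival, division and stress genes were counted against B cells and cDC1 in the same way. Of 13 survival genes, 1 was at least 4-fold higher than in B cells (Pmaip1, which encodes the death promoter NOXA, 90.4 CPM and 4.53 times its B cell level) and 2 lower, beside 4.86 and 4.07% of all genes. Against cDC1 1 was higher and 5 were lower, beside 9.07 and 4.99%. Bcl2, the survival factor, had 24 UMI (11.4 CPM; 80.7 CPM in B cells and 346 CPM in T cells), while Bcl2l11 (BIM), its antagonist, was 181 CPM and 112 CPM in B cells. None of the 16 cell cycle genes compared with B cells passed 4-fold in either direction (4.86 and 4.07% of all genes). Against cDC1 3 of 11 were at least 4-fold lower (4.99% of all genes) and 0 higher (9.07%). The rule had left out cells with 4 or more UMI of Mki67 and Top2a together. Of 20 immediate-early and heat shock genes that dissociation can raise, 0 were 4-fold higher and 2 lower than in B cells (4.86 and 4.07% of all genes), with a median log2 fold of -0.08. Against cDC1 0 were 4-fold higher and 3 lower (9.07 and 4.99%), 12 of 20 were at least 2-fold lower (12.3% of all genes), and the median was -1.23. Mitochondrial genes took 5.91% of UMI in the median member, 6.22% in B cells and 3.54% in cDC1. Only 53 members (20.6%) lay at or under 5%, as did 18.9% of B cells and 97.5% of cDC1. Among cells at or under 5%, 575 genes were at least 4-fold higher in the members than in cDC1, in place of 881. Among the 245 members, the 199 over 5% and the 46 at or under it lay close in Tcf4 (3562 and 3553 CPM), stood at 6905 and 5047 CPM for Ccl4, and 11 of 3131 genes with at least 100 UMI, leaving out the mitochondrial ones, differed 2-fold, 5 higher and 6 lower.

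Members differed from each other most in a few genes. Among genes at 100 CPM or more, the ratio of the observed variance to that expected from depth and Poisson counting was highest for S100a9, S100a8, Lyz2, Cst3, Cxcl2, Ccl4, Selenop, Il1b, Tmsb4x and Malat1; for the first 3, most of the UMI lay in the 12 members named above, which this ranking over 257 members includes. Cd74, H2-Eb1, H2-Ab1 and Ly6d came next, and then Jun, an immediate-early gene that dissociation can raise, which lay in 56.0% of members. By contrast Bst2 ran from 1200 through 4127 to 7849 CPM and Irf8 from 683 through 2975 to 6329 CPM over the 257 members.

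MHC class II was a range among members rather than an even level. The sum of H2-Aa, H2-Ab1, H2-Eb1 and Cd74 ran from 0 to 43718 CPM over the 257 members, with a lower quartile of 5260, a median of 9658 and an upper quartile of 12338 CPM, and 4 members had none. Over the 245 members the logarithms of H2-Aa and H2-Ab1 had a Pearson r of 0.86 and a Spearman rho of 0.82; both come from the same cells and depth. The 49 members with the highest sum were then set beside the 49 with the lowest, a split chosen after the values were seen, on 1321 genes with at least 100 UMI. Median depth was 8313 and 7834 UMI. Of these genes 17 (1.29%) were at least 2-fold higher in the first set, on CPM + 10, and 6 (0.454%) lower.

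Between these sets Tcf4 was 0.855 times (0.793 to 0.922) and Bst2 0.918 times (0.856 to 0.984) as high in the first. The inducer Ciita was 74.2 CPM in the high set and 21.5 CPM in the low set (32 and 8 UMI). Among the 17 higher genes, Pgam2 was 264 and 67.3 CPM, Rgs1 290 and 78.1 CPM, Ccl3 455 and 145 CPM, and Cd4 418 and 161 CPM. Ccl4 was 8831 and 3190 CPM, a ratio of 2.77 (2.59 to 2.96). Igkc was 747 and 253 CPM. Among the 6 lower genes were Runx1, an early haematopoietic factor (67.3 and 242 CPM), and the intermediate filament gene Vim (188 and 495 CPM). Ciita, Cd33 and Ccnd2 had fewer than 100 UMI over both sets and are outside those counts. Cd33, a sialic acid-binding lectin, was 199 and 21.5 CPM (86 and 8 UMI), a ratio of 9.26 (4.50 to 22.1), and the cyclin gene Ccnd2 65.0 and 180 CPM. Ccl5 was lower as well, but 96 of its 144 UMI over all members lay in 1 cell. Of 10 immediate-early and heat shock genes with at least 100 UMI, 0 were 2-fold higher or lower, beside 1.29 and 0.454% of all genes. Their median log2 ratio was 0.65, beside -0.09 over all genes. Jun was 353 and 213 CPM, and Fos 438 and 269 CPM. The part of dissociation in this split was not tested.

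A second range followed Ly6a, itself a gene that interferon can induce. It ran from 0 through a median of 1342 to 6202 CPM over the 257 members. The 49 members highest in Ly6a (median depth 8085 UMI) were set beside the 49 lowest (8545 UMI) over 1354 genes, of which 23 (1.70%) were at least 2-fold higher and 7 lower. Of the 8 fixed interferon response genes with at least 100 UMI, 4 were at least 2-fold higher. Isg15, a ubiquitin-like antiviral protein, had 118 UMI in the high set and 3 in the low set, 304 and 7.09 CPM. Over all members its 168 UMI lay in 51 cells, with up to 19 UMI in 1 cell. The highest member had 2245 CPM, while about 95% of members lay at or under 299 CPM. A few cells therefore weigh heavily in the Isg15 contrast. Irf7 was 477 and 139 CPM. With fewer than 100 UMI over both sets, and so outside the counts, Slfn5 was 183 and 14.2 CPM, Ifitm3 157 and 26.0 CPM and Ifi44 142 and 40.2 CPM. Stat2 was 142 and 128 CPM, a ratio with an interval of 0.749 to 1.65, and Tcf4 and Bst2 were level (ratios of 1.02 and 1.02). Pgam2, Cd4 and Cd8b1 were higher here too, at ratios of 4.17, 2.76 and 2.71, as was Cd33 on fewer UMI (75 and 14). Ciita had 14 UMI in each set, and Cst3 was lower (889 and 1985 CPM). Of the 2428 Cst3 UMI over all members, 469 lay in 1 cell, and Cst3 was not compared without that cell. Of 11 immediate-early and heat shock genes with at least 100 UMI, 2 were at least 2-fold higher and 0 lower, beside 1.70 and 0.517% of all genes. Their median log2 ratio was 0.21, beside -0.03 over all genes, and Jun was 508 and 187 CPM. The part of dissociation in the Ly6a split was not tested either. The sets of high class II and high Ly6a share cells, and which genes belong to which range was not tested.

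**Figure D4:**
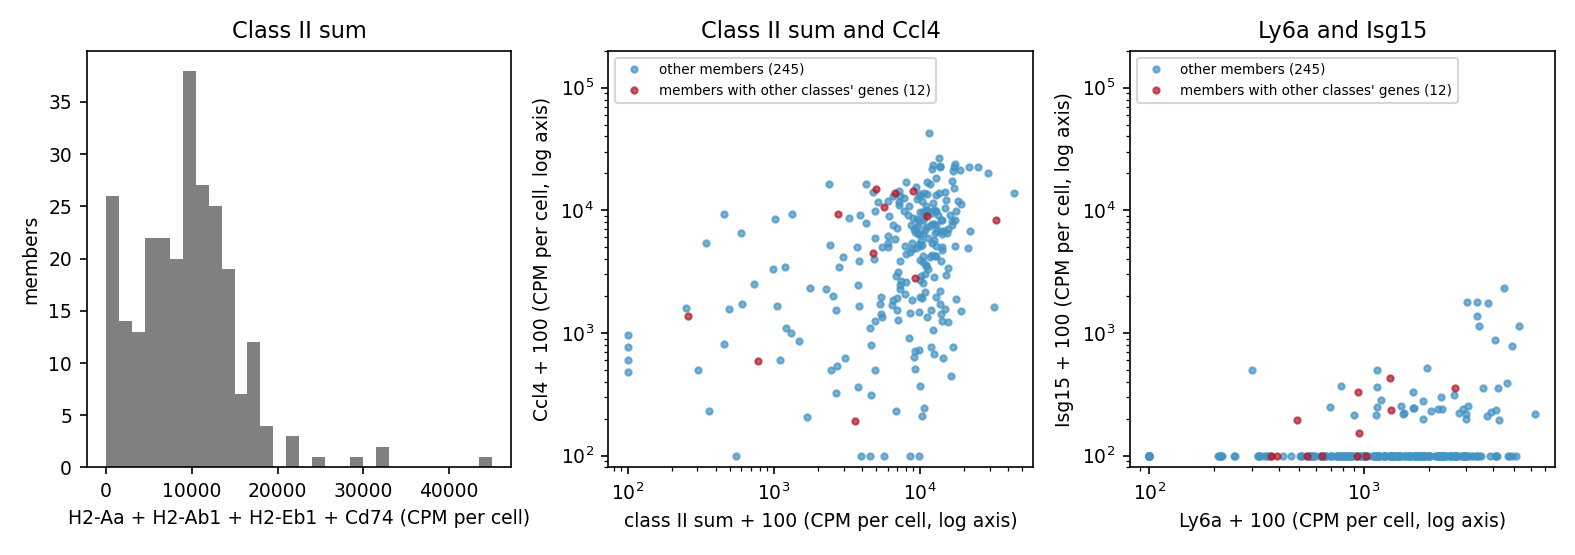
Left, number of members by their class II sum (CPM per cell); middle, class II sum against Ccl4; right, Ly6a against Isg15 (CPM + 100 per cell, log axes), each point a member and red points the 12 with other classes' transcripts. The class II sum spreads from 0 to 43718 CPM around a median of 9658, and most members lie on the floor of Isg15, which 206 of 257 lack.

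**Figure D5:**
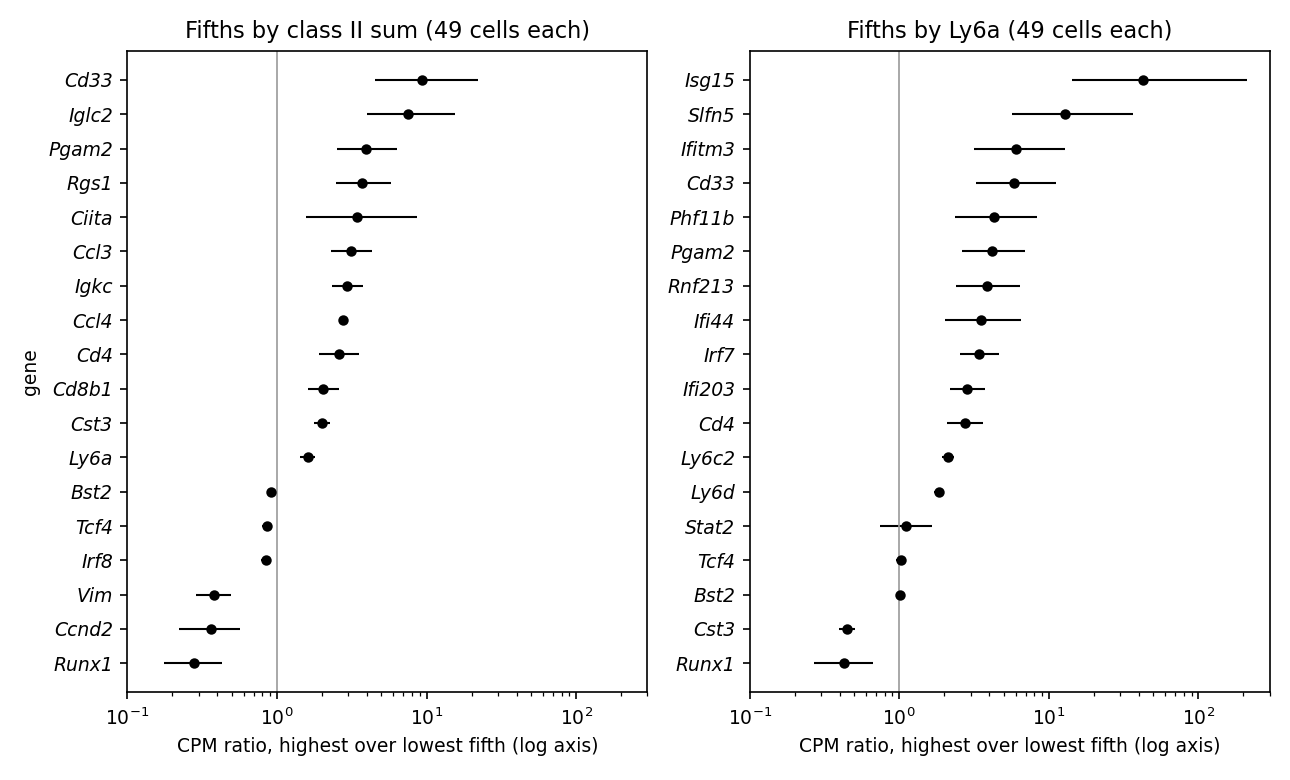
Ratio of summed CPM (log axis, exact conditional 95% interval) between the 49 members with the highest and the 49 with the lowest class II sum (left, 18 genes) or Ly6a (right, 18 genes), including genes with fewer than 100 UMI over both sets. Tcf4 and Bst2 lie near 1 in both panels, Cd33, Pgam2 and Cd4 lie above 1 in both, and Isg15 is the farthest out for Ly6a (118 against 3 UMI).

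A split by Ly6d was made in the same way. Between the 49 highest and the 49 lowest members, 6 of 1289 genes were at least 2-fold higher and 7 lower. Ly6a was among the higher genes (2290 and 1030 CPM). Over the 245 members Ly6a and Ly6d had a Spearman rho of 0.37, so this split is not separate from that by Ly6a. Tfrc, the transferrin receptor, was 246 and 114 CPM. Cd8a, with fewer than 100 UMI (79 and 19) and outside these counts, was 209 and 46.3 CPM, a ratio of 4.51 (2.71 to 7.89). Cacna1e, a calcium channel gene, was 58.2 and 251 CPM, Cd209d 124 and 382 CPM, and Cst3 899 and 1961 CPM. The 1 cell with 469 of the 2428 Cst3 UMI was not set aside here either. The 115 of 245 members with a Dntt UMI and the 130 without were at a median of 8027 and 7983 UMI. Of 3142 genes 0 were at least 2-fold higher in the first on CPM + 10 and 2 lower. The 2 include Ccl5, most of whose UMI lay in 1 cell. The 115 held only 234 Dntt UMI, so a member with 0 may still express it. This split therefore cannot show whether members with and without Dntt are alike.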

How the data were processed

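The values the authors deposited are raw UMI counts, whole numbers with no normalization, over 31053 genes. The tools named in the submitters' processing notes are Seurat 2.3.4, STAR and Cell Ranger 2.1.1, with the build mm10; the header of the matrix names software 3.0.0. The barcodes held 67037274 UMI, from 502 upwards. Barcodes needed 500 UMI, 200 genes and a mitochondrial share of 10% or less to be kept; 56 had too few genes and 778 exceeded the mitochondrial limit.

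Analysis used Python 3.11.15, numpy 2.4.6, scipy 1.17.1, pandas 2.3.3 and scanpy 1.11.5 (Scrublet). Comparison classes were gated on UMI of defining genes, for example at least 4 of Ms4a1, Ebf1, Pax5 and Fcmr for B cells and at least 3 of Xcr1 and Clec9a for cDC1, with at most 1 Siglech; 21 barcodes in more than 1 of 9 gates were dropped. Counts were summed per class. A call is a ratio of CPM + 1 of at least 4 (or 2), over genes with at least 10 UMI over the 2 sums together and used in neither gate; the script was tested on simulated data. Shares of cells were compared after thinning each cell to 1000 UMI.

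Members, gates, the cell type marker lists and the 15 fixed gene lists were chosen with earlier results of these data known. A further 3 lists were added after values were seen. Outside the lists, named genes are the 10 highest (in at least 25% of members) and 5 lowest folds (at 100 CPM or more) per comparison and the 10 most variable; genes compared within the members, such as Cd33 and Ccl5, were chosen after their values were seen. Coordinates are from GENCODE on GRCm38 by gene identifier, promoters from RefSeq on GRCm38.p6.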

Additional observations from a re-analysis of the deposited data

How the results depend on the processing

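Each setting was changed in turn, 14 in all. Of 51 counts and shares recomputed, 46 stayed within the spread allowed. With at most 5% mitochondrial UMI the share of plasmacytoid cells was 1.06%, with 53 members, and 575 genes were at least 4-fold higher than in cDC1. With a pseudocount of 10 CPM, 254 genes were at least 4-fold higher than in B cells, 269 than in cDC1 and 162 than in all other kept cells, in place of 597, 881 and 344. Of 1008 log2 folds of 24 named genes, 168 moved beyond their counting interval, with very small changes not counted as moves. Leaving out the pseudocount of 10 CPM, the largest change of a log2 fold was 3.33, so the sizes of folds are less steady than their signs. Among called values 0 changed sign. The 3 changes of sign were all of Id2 against B cells, near equality in the report. No paired analysis was possible because both labelled samples hold 1 matrix and share only replicate number 1. Genes under about 3 UMI per 2112820 (1.42 CPM) were not detectable in the members, and 40 cDC1 and 51 plasma cells limit ratios against them.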
